A study of Mus musculus with 12 samples.

Results

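The genes described here carry out lytic cell death, the kind in which a cell's membrane breaks and its contents spill out: Zbp1, Ripk1, Ripk3, Mlkl, Casp8, Casp1, Casp4 and Gsdmd. Each was represented by a probe set to which the array's annotation gave that symbol and no other, and where there were several, by the one with the highest mean over all arrays. Of the 8 listed genes, 7 were measured in this way, among 22180 genes in all. The expression of Ripk1 was not analysed here. The genes were chosen by the measured values of these arrays, since earlier results of these data had shown interferon genes, Zbp1 among them, below Control in the treated tumours. Their differences from Control are therefore a description: counts of calls against Control are printed beside the share of all genes, and nothing is read from them.

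Total RNA of GL261 tumours was hybridised to 12 Affymetrix mouse gene arrays, 3 for each of 4 groups. GL261 is a single mouse glioblastoma cell line that grows in the brain of C57BL/6 mice with an intact immune system. All tumours grew in the brains of male C57BL/6 mice, 8 weeks old when the cells were implanted, and were collected on day 16. The TMZ group received temozolomide, an alkylating drug, at 30 mg/kg into the peritoneum. The Anti-PD-1 group received an antibody against the T cell receptor PD-1 at 10 mg/kg into a vein, with 2 injections per week, and the Combination group received both agents. The labels do not say what the Control animals were given, on which days the drugs were given, or whether each array came from a separate animal, so p-values measure only the spread between arrays. Values are log2 RMA signals, on which a difference of 1 is a doubling. An adjusted p is that of limma with Benjamini-Hochberg adjustment over all 22180 genes, with 0.05 as the threshold.

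Lytic death runs along a pair of routes that share components. In necroptosis, ZBP1 senses unusual nucleic acids, including the left-handed Z form of double-stranded RNA, and binds RIPK3. RIPK3 phosphorylates MLKL, which then inserts into the plasma membrane and ruptures it. RIPK1 feeds death receptor signals into RIPK3, and caspase-8 cleaves both kinases and so restrains the route. In pyroptosis, inflammasomes activate caspase-1, while caspase-4, named caspase-11 in mice, senses bacterial lipopolysaccharide directly. Both cut gasdermin D, whose free end forms pores in the membrane. Zbp1, Mlkl, Casp4 and several of the others are known interferon-induced genes, and microglia and macrophages are the brain's main inflammasome-bearing cells.

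The tissue behind the values was checked against lists of marker genes. All 14 neuron markers lay above the median gene of the arrays (log2 5.72), with a mean level of 9.99 to 10.14 per array, whereas 10 of 11 proliferation markers and all 10 measured T cell markers lay below it. Neuron RNA was thus plainly present on every array, and how much normal brain the dissected masses contained is not given in the labels. The arrays resembled one another over all probe sets, with pairwise correlations of 0.984 to 0.991. Control replicate 3 had a lower level than the other Control arrays in 7 of 7 measured genes, so each gene's Control differences are also given without it. Leaving it out made these differences larger, and leaving out another array could make them smaller. With 1 array left out, the smallest Anti-PD-1 differences from Control were -1.53 (Zbp1), -1.4 (Mlkl), -0.5 (Casp8) and -0.44 (Casp4). With all arrays they were -1.76, -1.68, -0.67 and -0.76. In bulk RNA of this kind, fewer cells of a type and less RNA per cell cannot be told apart.

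Zbp1, the nucleic acid sensor, had the widest spread between groups. Its log2 signal on the 3 Control arrays was 7.50, 7.58 and 6.30. It was 6.54, 5.54 and 5.71 after TMZ, 5.11, 5.24 and 5.74 after Anti-PD-1, and 6.02, 6.30 and 6.36 in the Combination group. All 3 Anti-PD-1 arrays lay below all 3 Control arrays, while the TMZ and Combination groups each overlapped the third Control array. The group means were 7.12 ± 0.72 (SD, n = 3) for Control, 6.23 ± 0.18 for Combination, 5.93 ± 0.54 for TMZ and 5.36 ± 0.33 for Anti-PD-1. Zbp1 was therefore 3.39-fold lower than Control after Anti-PD-1 (log2 difference -1.76 ± 0.33, SE), 2.29-fold lower after TMZ (-1.19 ± 0.33) and 1.86-fold lower in the Combination group (-0.90 ± 0.33). Without Control replicate 3 these differences were -2.17, -1.61 and -1.31.

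Mlkl encodes the membrane-rupturing end of necroptosis. Its signal was 6.51, 6.81 and 5.48 on the Control arrays, 5.22, 4.40 and 4.87 after TMZ, 4.11, 4.99 and 4.67 after Anti-PD-1, and 4.85, 5.27 and 4.97 in the Combination group. Every treated array lay below the lowest Control array, in all 3 treated groups. For single groups, 6.81% (TMZ), 8.33% (Anti-PD-1) and 7.82% (Combination) of all genes had every array below Control. The share for all 3 groups at once was not counted. The Mlkl means were 6.26 ± 0.70 (SD, n = 3) in Control, 5.03 ± 0.22 in Combination, 4.83 ± 0.41 in TMZ and 4.59 ± 0.44 in Anti-PD-1. Mlkl was 3.19-fold lower than Control after Anti-PD-1 (-1.68 ± 0.32), 2.71-fold lower after TMZ (-1.44 ± 0.32) and 2.35-fold lower in the Combination group (-1.23 ± 0.32). Leaving out Control replicate 3 moved these to -2.07, -1.83 and -1.63.

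Ripk3, the kinase that links the sensor to Mlkl, showed no such pattern. Its signal was 4.78, 4.74 and 4.65 in Control, 4.54, 4.60 and 4.81 after TMZ, 4.74, 4.70 and 4.38 after Anti-PD-1, and 4.45, 4.53 and 4.78 in the Combination group. The 4 groups overlapped throughout, and the differences from Control were -0.07 ± 0.11 (TMZ), -0.12 ± 0.11 (Anti-PD-1) and -0.14 ± 0.11 (Combination), or -0.11, -0.15 and -0.17 without Control replicate 3. In these 2 fits the differences of the kinase thus lay between -0.07 and -0.17, against -1.19 and -1.44 after TMZ for the sensor Zbp1 and the effector Mlkl. With any 1 array left out those of Ripk3 ran from -0.23 (Combination) to 0.0 (Anti-PD-1). Ripk3 was dim, with a mean of 4.64 over the arrays, against 5.18 for Mlkl, 6.16 for Zbp1 and 5.72 for the median gene. RMA compresses differences between dim probe sets. With the level of microglia markers as a covariate in the fit, the TMZ differences of Zbp1 and Mlkl were -0.20 and -0.66, and with that of neuron markers -0.51 and -0.92.

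**Figure D1:**
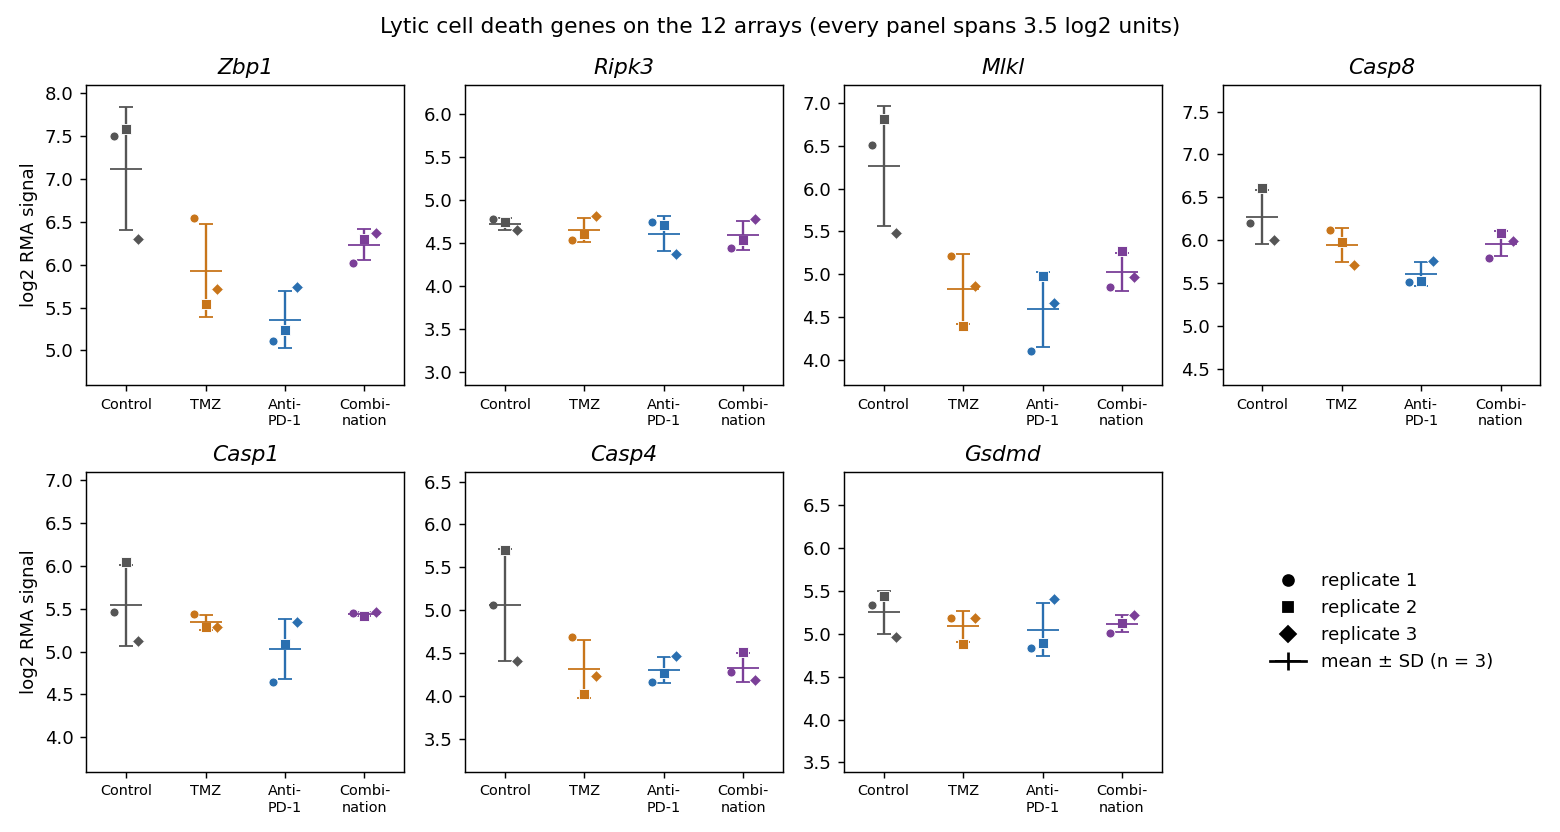
Log2 RMA signal of the 7 measured lytic cell death genes on each of the 12 arrays, by group; markers are single arrays, horizontal lines and bars are the mean ± SD of 3 arrays, and every panel spans 3.5 log2 units. Zbp1 and Mlkl are highest on Control replicates 1 and 2, and the treated Mlkl arrays (4.11 to 5.27) all lie below Control (5.48 to 6.81); Ripk3 stays between 4.38 and 4.81.

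Casp8 encodes the protease that triggers apoptosis and holds necroptosis back. It read 6.19, 6.61 and 6.00 on the Control arrays, 6.11, 5.98 and 5.71 after TMZ, 5.51, 5.52 and 5.76 after Anti-PD-1, and 5.79, 6.09 and 5.99 in the Combination group. The Anti-PD-1 arrays were the lowest group, below every Control array and below every Combination array, and they overlapped TMZ. Casp8 was 1.59-fold lower than Control after Anti-PD-1 (-0.67 ± 0.15), with -0.33 ± 0.15 after TMZ and -0.31 ± 0.15 in the Combination group. Without Control replicate 3 the differences were -0.81, -0.47 and -0.45 in the same order.

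The inflammatory caspases differed from each other. Casp4, the lipopolysaccharide sensor, read 5.07, 5.70 and 4.41 in Control, 4.69, 4.03 and 4.23 after TMZ, 4.16, 4.27 and 4.46 after Anti-PD-1, and 4.28, 4.51 and 4.18 in the Combination group. Control replicates 1 and 2 were above all treated arrays, and replicate 3 was among them. Its differences from Control were nearly equal in the 3 treated groups, at -0.75 ± 0.26 (TMZ), -0.76 ± 0.26 (Anti-PD-1) and -0.73 ± 0.26 (Combination). Without Control replicate 3 they were -1.07, -1.09 and -1.06, and with the level of neuron markers as a covariate the Anti-PD-1 difference was 0.05. Casp1, the inflammasome protease, read 5.46, 6.05 and 5.12 in Control, 5.44, 5.29 and 5.29 after TMZ, 4.65, 5.09 and 5.35 after Anti-PD-1, and 5.45, 5.42 and 5.46 in the Combination group. Control overlapped every treated group for Casp1, and the differences were -0.21 ± 0.21, -0.52 ± 0.21 and -0.10 ± 0.21 for TMZ, Anti-PD-1 and Combination. Without Control replicate 3 they were -0.42, -0.73 and -0.31, and without Control replicate 2 the TMZ and Combination differences turned to 0.04 and 0.15. Casp1 and Casp4 are next to each other on mouse chromosome 9, and Casp12, another caspase of this cluster, follows. Casp12 had group means of 4.26 ± 0.29 (SD, n = 3) in Control, 3.97 ± 0.08 after TMZ, 3.84 ± 0.13 after Anti-PD-1 and 4.14 ± 0.13 in the Combination group.

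Gsdmd encodes the pore-forming substrate of these caspases. Its brighter probe set read 5.34, 5.44 and 4.96 in Control, 5.19, 4.88 and 5.19 after TMZ, 4.84, 4.89 and 5.41 after Anti-PD-1, and 5.02, 5.12 and 5.22 in the Combination group. All 4 groups overlapped, and the differences from Control were -0.16 ± 0.16 (TMZ), -0.20 ± 0.16 (Anti-PD-1) and -0.13 ± 0.16 (Combination). Leaving out Control replicate 3 gave -0.30 (TMZ), -0.35 (Anti-PD-1) and -0.27 (Combination). A second Gsdmd probe set did not follow the first. It read 4.82, 4.94 and 4.92 in Control and 4.93, 4.70 and 4.45 in the Combination group, and against TMZ its Combination difference was -0.39 ± 0.12 (unadjusted p = 0.00853, limma adjusted p = 1 over all probe sets), where the brighter probe set gave 0.03 ± 0.16. From Control the second probe set differed by 0.19 ± 0.12 (TMZ), 0.03 ± 0.12 (Anti-PD-1) and -0.2 ± 0.12 (Combination). Its Combination minus Anti-PD-1 difference was -0.22 ± 0.12. The direction of Gsdmd therefore depended on the probe set between the Combination and either single agent. It also did so for TMZ and Anti-PD-1 against Control.

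The order of the group means was Control, Combination, TMZ, Anti-PD-1 from high to low for 6 of the 7 genes, with Gsdmd read from its brighter probe set. Combination and TMZ, neighbours in that order, differed by less than the SE of their difference in each of these 6. The order for Ripk3 was Control, TMZ, Anti-PD-1, Combination, with neighbours also within the SE. All 7 genes had a mean below Control in each treated group, with medians of -0.33 (TMZ), -0.67 (Anti-PD-1) and -0.31 (Combination), against 0.0061, 0.0078 and 0.0005 over all genes. The second Gsdmd probe set lay above Control after TMZ (0.19) and Anti-PD-1 (0.03). By limma, 0 of 7 genes passed the adjusted threshold against Control in any treated group. Of all genes, 0.0992% passed for TMZ, 0.293% for Anti-PD-1 and 0% for the Combination. Counts at an unadjusted p under 0.05 were 3, 5 and 3 of 7, where 11.3%, 13.5% and 11.6% of all genes did so. Arrays of the treated group lay wholly below Control for 1 (Mlkl), 3 (Zbp1, Mlkl, Casp8) and 1 (Mlkl) of the 7, against 6.81%, 8.33% and 7.82% of all genes. Because the choice of genes used these contrasts, nothing is read from the counts. Without Control replicate 3, 3 genes passed for TMZ and 3 for the Combination (Zbp1, Mlkl and Casp4 in both), and 4 passed for Anti-PD-1 (those and Casp8). Calls rose over the whole array in that fit, to 1.64% of all genes for TMZ, 1.27% for the Combination and 3.09% for Anti-PD-1.

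The 3 Control comparisons share their Control arrays, so the likeness of one to another is no separate result. The interaction asks whether the effects of the agents add up: it is the Combination mean minus both single-agent means plus the Control mean, and 0 means additive log2 effects. It was above 0 for all 7 genes, at 2.06 ± 0.47 for Zbp1, 1.88 ± 0.46 for Mlkl, 0.78 ± 0.37 for Casp4, 0.69 ± 0.22 for Casp8, 0.62 ± 0.29 for Casp1, 0.24 ± 0.23 for Gsdmd and 0.05 ± 0.16 for Ripk3. The second Gsdmd probe set gave -0.42 ± 0.17, so the sign for this gene depended on the probe set. The Combination group's Zbp1 and Mlkl means thus lay above those of both single agents and not below them, as additive losses would have placed them. In this contrast 0 of 7 genes and 0.00451% of all genes passed the limma threshold, and 3 of the 7 had an unadjusted p under 0.05, against 8.92% of all genes. Without Control replicate 3, Zbp1 (2.47) and Mlkl (2.27) passed, with 0.893% of all genes. The Control arrays enter the interaction as well, so it is also a description.

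**Figure D2:**
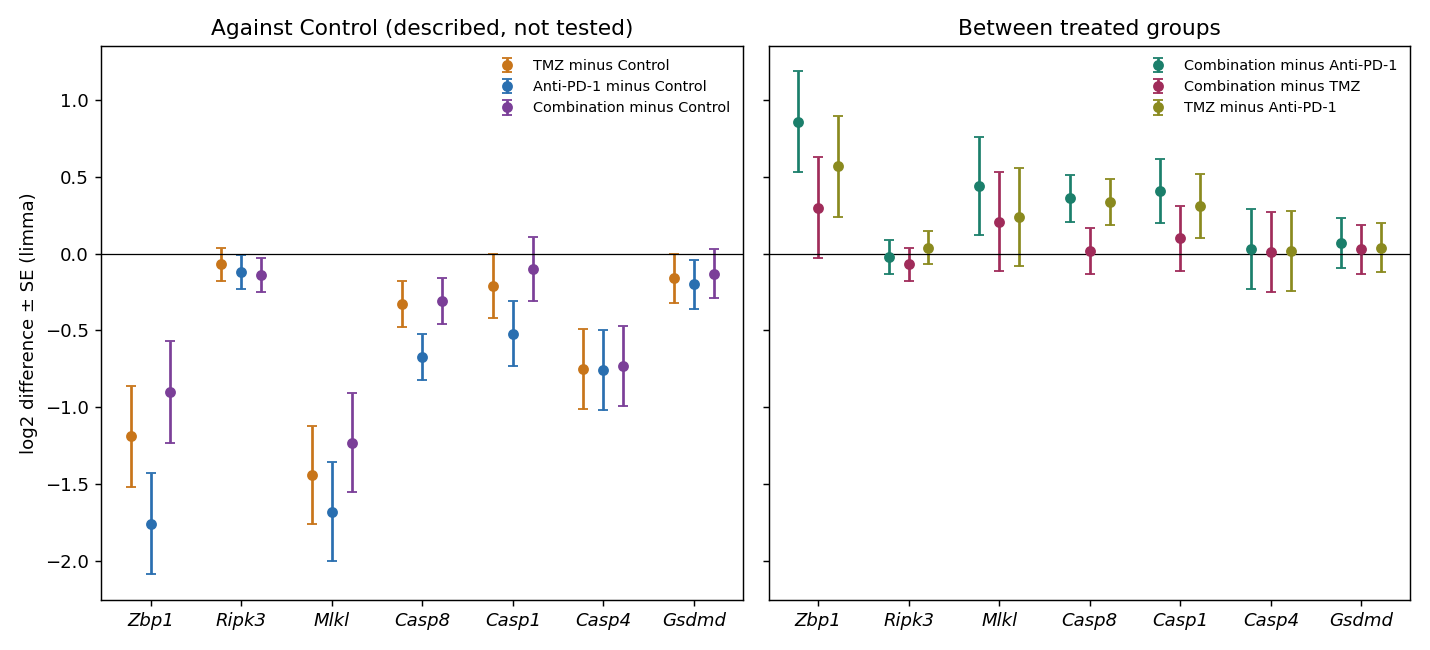
Log2 differences ± SE from limma for the 7 genes, against Control on the left and between the treated groups on the right; the horizontal line marks no difference. Zbp1 and Mlkl lie lowest on the left, down to -1.76 and -1.68 after Anti-PD-1, and Ripk3 and Gsdmd stay within 0.20 of the line on both sides.

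Comparisons among the treated groups do not use the Control arrays, although the treated arrays were part of the values behind the choice. The clearest separation was between Combination and Anti-PD-1. Zbp1, Casp8 and Casp1 were higher on every Combination array than on every Anti-PD-1 array, a pattern seen in 4.87% of all genes. Zbp1 was 1.82-fold higher (log2 difference 0.86 ± 0.33, 95% interval 0.14 to 1.59; unadjusted p = 0.0239 and adjusted p = 1 by limma). Casp8 was 1.28-fold higher (0.36 ± 0.15, interval 0.03 to 0.69; unadjusted p = 0.0361 and adjusted p = 1 by limma). Casp1 was 1.33-fold higher (0.41 ± 0.21, interval -0.04 to 0.86; unadjusted p = 0.0696 and adjusted p = 1 by limma). By the adjusted threshold 0 of 7 genes and 0% of all genes were called. At an unadjusted p under 0.05, 2 of 7 genes and 4.91% of all genes were found. Mlkl differed by 0.44 ± 0.32, with all 3 Combination arrays above the Anti-PD-1 mean and an interval of -0.27 to 1.15. Casp4 (0.03 ± 0.26; -0.55 to 0.60), Gsdmd (0.07 ± 0.16; -0.28 to 0.43) and Ripk3 (-0.02 ± 0.11; -0.27 to 0.23) lay near 0. The median over the 7 genes was 0.36, against -0.0045 over all genes, of which 47.8% were higher in the Combination group.

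Between Combination and TMZ the 7 genes differed little. Zbp1 was 0.30 ± 0.33 higher (95% interval -0.43 to 1.02) and Mlkl 0.21 ± 0.32 higher (-0.50 to 0.91), and the other 5 lay between -0.07 (Ripk3) and 0.10 (Casp1). The intervals leave room for differences of up to about a doubling in Zbp1. No gene had all Combination arrays above all TMZ arrays, a pattern seen in 3.81% of all genes, and 0 of 7 had an unadjusted p under 0.05, against 4.19% of all genes. The limma threshold was passed by 0 of 7 and by 0% of all genes.

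TMZ was above Anti-PD-1 in the mean of all 7 genes, with a median of 0.24 against -0.0009 over all genes. Casp8 differed by 0.34 ± 0.15 (1.27-fold; 95% interval 0.01 to 0.67; unadjusted p = 0.0459 and adjusted p = 1 by limma), and Zbp1 by 0.57 ± 0.33 (-0.16 to 1.29). All 3 TMZ arrays lay above the Anti-PD-1 mean for Zbp1, Casp8 and Casp1, but no gene's groups were free of overlap, where 4.38% of all genes had every TMZ array above. Casp8 was the 1 gene of the 7 with an unadjusted p under 0.05, against 4.51% of all genes, and 0 of 7 and 0% of all genes passed the adjusted threshold. The 3 treated comparisons share arrays, so Zbp1 and Casp8 in the Anti-PD-1 group enter both of the larger differences.

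The genes varied together over the 12 arrays, with Ripk3 apart. Pearson's r was 0.93 for Zbp1 with Mlkl (Spearman's rho 0.80), 0.91 for Zbp1 with Casp8 (rho 0.94), 0.91 for Mlkl with Casp4 (rho 0.80) and 0.86 for Zbp1 with Casp4 (rho 0.79). These pooled values hold the group differences that led to the choice of genes and are a description. Without Control replicates 1 and 2, the arrays farthest from the Zbp1 median, they fell to 0.76, 0.87, 0.66 and 0.62 in the same order. Ripk3 had r between -0.07 and 0.29 with the other 6 genes.

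Deviations from the group means leave the group differences out. On that scale 16 of the 21 pairs had r above 0, and the values ran from -0.27 to 0.87. Zbp1 with Mlkl had r = 0.83 and Mlkl with Casp4 0.87. Control was the group with the widest spread for these genes, with replicate 3 lowest. Its SD was 0.72 (Zbp1), 0.7 (Mlkl) and 0.65 (Casp4), against pooled within-group SDs of 0.486, 0.474 and 0.382. The Control arrays therefore weigh heavily in these r values, and r within groups was not computed without Control replicate 3. In an exact two-sided permutation test over the 1296 orders of the arrays within groups, 1 pair passed after Benjamini-Hochberg adjustment over the 21 pairs: Zbp1 with Gsdmd (r = 0.82, permutation p = 0.000772, the smallest this test can give, adjusted p = 0.0162). The pooled r of that pair was 0.72 (rho 0.77) and fell to 0.51 without Control replicates 1 and 2 (adjusted permutation p = 0.24), and it rests on the brighter of the Gsdmd probe sets. Zbp1 with Casp4 (r = 0.87) had an adjusted permutation p of 0.0729, and Zbp1 with Mlkl of 0.0764. All pairs with Ripk3 lay between -0.27 and 0.03. The arrays of a pair share their tissue and their normalisation, which also enters r.

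**Figure D3:**
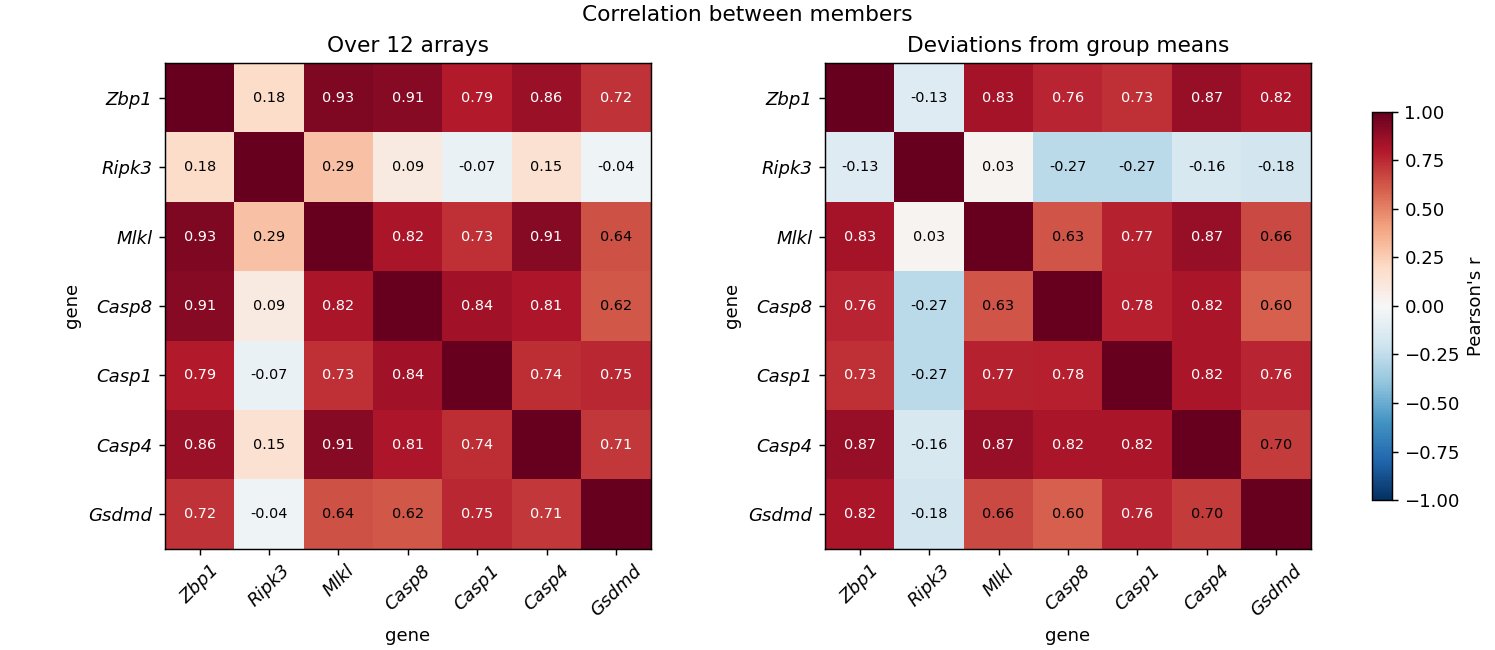
Pearson's r between the 7 genes over the 12 arrays (left) and between their deviations from the group means (right); colour and number give r. Pairs without Ripk3 run from 0.62 to 0.93 on the left and from 0.60 to 0.87 on the right, and the Ripk3 row stays between -0.27 and 0.29.

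The genes whose arrays followed each member most closely were read from 17392 genes. For Zbp1 they were Usp18 (r = 0.987), Isg15 (0.986), Rnf213 (0.985), Bst2 (0.985) and Gbp3 (0.981), all known interferon-induced genes, with r of 0.95 to 0.96 on deviations from the group means. For Mlkl they were Ckap2 (0.973), a mitotic spindle gene, Parp12 (0.973), an interferon-induced gene, and Strc (0.970). Casp8 was closest to the guanylate-binding protein genes Gbp9 (0.978) and Gbp5 (0.957) and to Sp110 (0.952), Casp1 to Nlrc5 (0.951), Med29 (0.941) and Samhd1 (0.937), and Casp4 to Mcam (0.966) and the cell cycle regulators Mybl2 (0.965) and Rbl1 (0.963). Gsdmd was closest to Cryzl2 (0.947), Il10ra (0.935) and the apoptosis gene Bak1 (0.887), and Ripk3 to Cd300c (0.888), Gprc5d (0.887) and Pigr (0.862). These values are the highest of many and are a description over 12 arrays.

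The mean level of 25 measured type I interferon response genes, which do not include the members, ran with most of them. Over the 12 arrays r was 0.99 for Zbp1, 0.95 for Mlkl, 0.91 for Casp8 and Casp4, 0.81 for Casp1 and 0.76 for Gsdmd, and 0.22 for Ripk3. These pooled values hold the group differences that led to the choice of genes. The list too was written with earlier results of these data known, so they are a description. On deviations from the group means it was 0.97 for Zbp1, 0.93 for Casp4, 0.88 for Gsdmd, 0.86 for Mlkl, 0.83 for Casp1 and 0.80 for Casp8, and -0.08 for Ripk3. The list's level was 5.97 to 6.81 on the Control arrays, 5.51 to 6.02 after TMZ, 5.33 to 5.71 after Anti-PD-1 and 5.75 to 5.96 in the Combination group. It thus had the group order of Zbp1, and Control replicate 3 was again its lowest Control array.

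Several cell type marker lists moved with the same arrays, and some did not. The mean of 13 measured microglia markers was 6.82 to 7.0 in Control, 6.57 to 6.87 after TMZ, 6.68 to 6.80 after Anti-PD-1 and 6.81 to 6.88 in the Combination group, and followed Zbp1 with r = 0.90. That of 14 measured monocyte and macrophage markers was 5.42 to 5.79, 5.29 to 5.59, 5.17 to 5.37 and 5.37 to 5.62 in the same order, with r = 0.95 for Zbp1 and 0.94 for Casp8. The 11 proliferation markers ran from 5.21 to 5.85 in Control and from 4.54 to 4.88 in the treated groups, with r = 0.96 for Mlkl and 0.91 for Casp4. Neuron markers ran the other way, with r = -0.91 for Zbp1. Zbp1 had r = 0.90 with proliferation, 0.80 with dendritic cell, 0.78 with T cell, 0.74 with natural killer (NK) cell, 0.69 with astrocyte and 0.59 with oligodendrocyte markers. Its r was 0.11 with B cell, -0.33 with neutrophil and -0.51 with endothelium markers. On deviations from the group means it was 0.92 with monocyte and macrophage, 0.91 with microglia and proliferation, 0.9 with T cell and 0.87 with NK cell markers. There it was 0.73 with oligodendrocyte, 0.66 with dendritic cell and 0.63 with astrocyte markers. With B cell, endothelium, neutrophil and neuron markers it was -0.17, -0.31, -0.58 and -0.76. RMA signals have no zero, so no marker can be called absent: the dimmest microglia marker, Gpr34, averaged 5.07, and the dimmest monocyte and macrophage marker, Chil3, 3.43. With the microglia level as a covariate in the fit, the Combination minus Anti-PD-1 difference of Zbp1 was 0.40 and the Anti-PD-1 minus Control difference -0.83. With the neuron level they were 0.43 and -0.76. The part of these cell types in the differences was not tested further.

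**Figure D4:**
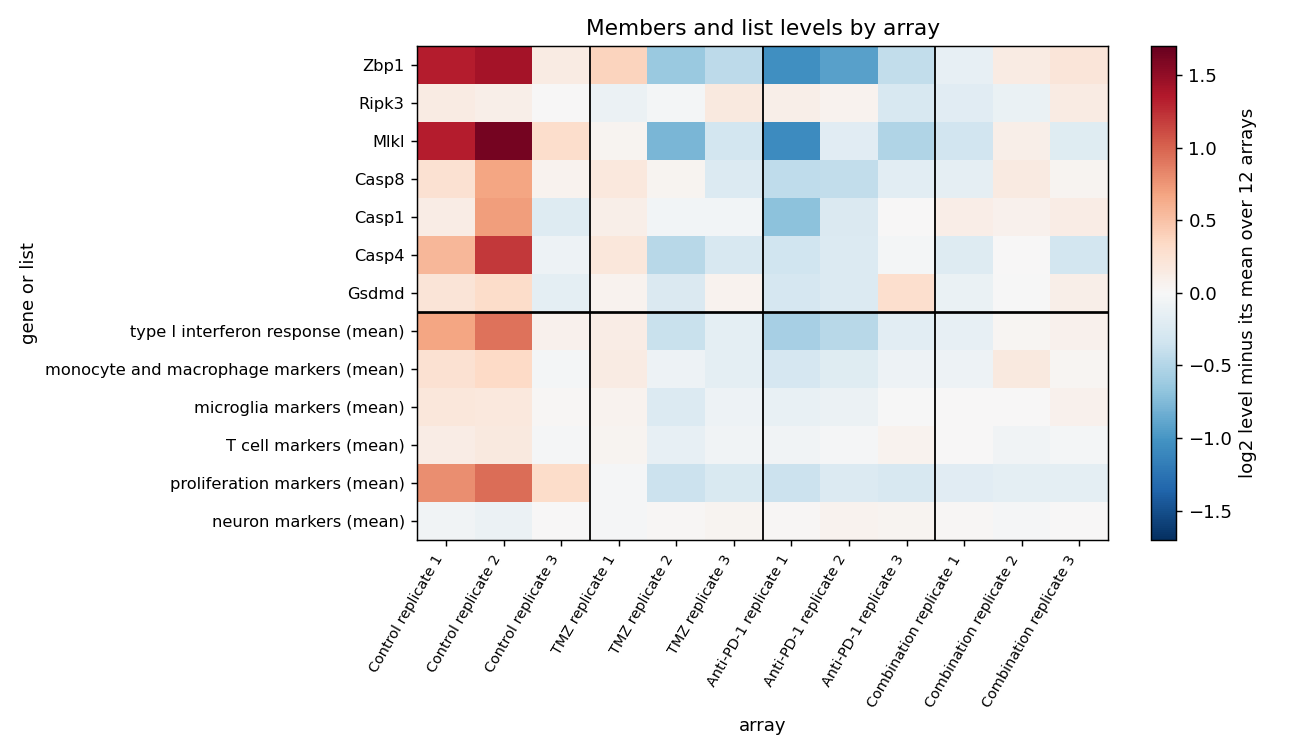
Log2 level of the 7 genes (upper rows) and mean level of 6 gene lists (lower rows) on each array, each minus its own mean over the 12 arrays; columns are arrays and vertical lines separate the groups. Control replicates 1 and 2 are high for Zbp1, Mlkl, Casp4, the interferon list and the proliferation list, and Control replicate 3 is closer to the treated arrays.

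Promoter sequences are shown for Ripk3, Mlkl, Casp8 and Casp4, the gene that stayed apart and 3 that ran with the interferon list. Each is the 250 bases before a RefSeq transcription start in mouse build GRCm38.p6, written 5′ to 3′ on the gene's strand. RefSeq's table held 6 of the 8 listed genes, and Zbp1 and Gsdmd were not among them. Capitals mark GAAA or its complement TTTC, the core that interferon-stimulated response elements repeat. The windows are chr14:55788858-55789107 on the minus strand for Ripk3, chr8:111338206-111338455 on the minus strand for Mlkl, chr1:58802252-58802501 on the plus strand for Casp8, and chr9:5308599-5308848 on the plus strand for Casp4. Casp8 spans chr1:58795233-58847503 and Mlkl chr8:111311255-111338479, so the windows of these genes lie inside them, before starts that are not the outermost.
Ripk3: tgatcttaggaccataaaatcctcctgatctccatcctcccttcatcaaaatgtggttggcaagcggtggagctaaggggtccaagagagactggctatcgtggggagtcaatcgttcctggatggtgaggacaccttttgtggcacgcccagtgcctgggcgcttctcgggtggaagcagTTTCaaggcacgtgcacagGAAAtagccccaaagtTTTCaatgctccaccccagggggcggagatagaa
Mlkl: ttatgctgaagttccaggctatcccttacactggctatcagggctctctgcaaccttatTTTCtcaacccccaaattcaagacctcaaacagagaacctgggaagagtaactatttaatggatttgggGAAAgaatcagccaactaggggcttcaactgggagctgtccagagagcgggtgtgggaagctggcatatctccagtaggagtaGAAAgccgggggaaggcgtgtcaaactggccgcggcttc
Casp8: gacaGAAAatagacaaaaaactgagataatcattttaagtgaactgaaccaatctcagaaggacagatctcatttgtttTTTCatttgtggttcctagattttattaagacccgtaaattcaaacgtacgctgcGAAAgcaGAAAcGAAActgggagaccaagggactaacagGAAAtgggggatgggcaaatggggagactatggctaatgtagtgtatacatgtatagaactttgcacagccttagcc
Casp4: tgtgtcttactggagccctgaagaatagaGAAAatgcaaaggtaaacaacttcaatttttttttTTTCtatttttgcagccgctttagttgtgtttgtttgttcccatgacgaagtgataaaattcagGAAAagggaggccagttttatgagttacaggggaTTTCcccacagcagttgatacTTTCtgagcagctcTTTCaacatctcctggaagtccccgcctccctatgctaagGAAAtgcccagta

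The core occurred 3 times in the windows of Ripk3 and Mlkl, 6 times in that of Casp8 and 7 times in that of Casp4. Another Casp4 window, chr9:5308610-5308859, is not shown and held it 8 times. Among all 32851 promoter windows of this length, 86.4% held it on either strand, with a median of 2 and quartiles of 1 and 4. The full core of the response element, GAAA followed after any 2 bases by another GAAA, present in 2.98% of all windows on either strand, was not in any of these 4 or in that of Casp1, and neither was the gamma-activated site TTCNNNGAA, present in 7.02%. Of the windows of Ripk1, whose expression was not analysed, chr13:34002624-34002873 held 2 gamma-activated sites and chr13:34002113-34002362 none. Casp8 held GAAACGAAA, a match to GAAANGAAA that begins 109 bases before the start and overlaps 2 of its cores. That pattern was in 2.68% of all windows, and it and the single core were searched after the sequences had been read. Mlkl, with one of the largest differences between groups, and Ripk3, with one of the smallest, held equal numbers of the core. A missing match says only that these letters are not in these windows.

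The rest of the pathway was read from lists of general knowledge, in order from trigger to rupture. In the Combination against Anti-PD-1 comparison, 47.8% of all genes were higher, 4.91% had an unadjusted p under 0.05 by limma and 0% passed. Of 14 measured triggers and receptors, 10 were higher and 4 lower in the Combination than in the Anti-PD-1 group (median 0.06, against -0.0045 over all genes), and 0 passed limma's threshold, with 2 at an unadjusted p under 0.05. These were Tlr4, the lipopolysaccharide receptor, at 0.27 ± 0.11, and Fasl, a death receptor ligand, at -0.19 ± 0.08. Of 20 regulators of the RIPK1 complex, 12 were higher and 8 lower (median 0.02), 0 passed and 0 had an unadjusted p under 0.05. The smallest p values were those of Traf2 (-0.17 ± 0.10) and Rnf31 (0.13 ± 0.08), which modify the complex with ubiquitin. Cflar, the neighbour of Casp8 on chromosome 1 and a partner that dampens it, differed by 0.06 ± 0.07.

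Of 14 inflammasome sensors and adaptors, 8 were higher and 6 lower in the Combination than in the Anti-PD-1 group (median 0.09), 0 passed and 4 had an unadjusted p under 0.05 by limma. Over all genes in this comparison, 47.8% were higher, 4.91% had an unadjusted p under 0.05 by limma and 0% passed. Aim2, a sensor of DNA in the cytosol, had means of 4.14 ± 0.10 (SD, n = 3) in Control, 3.82 ± 0.10 after TMZ, 3.87 ± 0.18 after Anti-PD-1 and 4.21 ± 0.17 in the Combination group. It was the sensor with the smallest p against both single agents, at 0.33 ± 0.11 over Anti-PD-1 and 0.38 ± 0.11 over TMZ (adjusted p = 1 by limma for both). Naip5, a flagellin sensor, was 0.45 ± 0.18 above Anti-PD-1. Among 11 cytokine substrates, gasdermins and rupture genes 10 were higher and 1 lower (median 0.10), 0 passed and 1 had an unadjusted p under 0.05, Gsdma (0.34 ± 0.15). Gsdma3 differed by 0.13 ± 0.07. Gsdma and Gsdma3 were dim, with means over the arrays of 3.19 and 2.89, against 5.72 for the median gene. Below the median gene lay 7 of these 11 genes and 12 of the 14 sensors and adaptors. Gsdmc2 was 0.65 lower in the Combination than in the TMZ group (-0.65 ± 0.11; unadjusted p = 7.5e-05, adjusted p = 0.67 by limma), with a Combination mean of 2.36 ± 0.13 (SD, n = 3).

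Apoptosis genes and membrane repair genes lay close to the middle of all genes. For Combination against Anti-PD-1, the shares of all genes were 47.8% higher, 4.91% at an unadjusted p under 0.05 by limma and 0% past the threshold. Of 13 other caspases and apoptosis genes, 7 were higher and 6 lower in the Combination than in the Anti-PD-1 group (median 0.01), 0 passed and 1 had an unadjusted p under 0.05 by limma, Casp12 (0.30 ± 0.13). Mcl1, an apoptosis inhibitor, differed by 0.10 ± 0.08. Of the 14 genes of the ESCRT-III machinery, which sheds damaged membrane and delays lysis, 10 were higher and 4 lower (median 0.04), 0 passed and 1 had an unadjusted p under 0.05 by limma. That gene was Chmp6, with 0.30 ± 0.08 (unadjusted p = 0.0046, adjusted p = 1), and Vps4b followed with 0.13 ± 0.09. Of the 25 type I interferon genes, 22 were higher and 3 lower (median 0.36), 0 passed and 8 had an unadjusted p under 0.05 by limma. Oasl2 (1.17 ± 0.43) and Isg15 (0.62 ± 0.23) had the smallest p values, and the comparators Ifit1 and Irf7 differed by 0.72 ± 0.31 and 0.63 ± 0.32. The list's median equalled that of the 7 lytic death genes, which is the value of Casp8, while the other lists stayed between 0.01 and 0.10. Of the 7, Ripk3 (-0.02), Casp4 (0.03) and Gsdmd (0.07) lay lower, and Casp1 (0.41), Mlkl (0.44) and Zbp1 (0.86) higher.

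Against Control the same lists are a description. After Anti-PD-1 the medians were -0.12 for triggers and receptors (10 of 14 lower), 0.00 for RIPK1 complex regulators (10 of 20), -0.06 for sensors (10 of 14), -0.08 for substrates and gasdermins (8 of 11), -0.04 for other caspases and apoptosis (9 of 13) and -0.06 for ESCRT-III (12 of 14). Over all genes 47.6% were lower, with a median of 0.0078. None of these lists' genes passed the limma threshold, and between 1 and 5 per list had an unadjusted p under 0.05, against 13.5% of all genes. The interferon list had a median of -0.85, all 25 genes were lower and 1 passed, Bst2, which encodes the virus-tethering protein tetherin (-2.56 ± 0.45, adjusted p = 0.0495 by limma). In these lists Ifnar2, a chain of the interferon receptor, differed by -0.21 ± 0.06, Tlr3, a sensor of double-stranded RNA, by -0.32 ± 0.11, and the sensors Nlrp1b and Naip5 by -0.38 ± 0.11 and -0.48 ± 0.18. Cflar differed by -0.16 ± 0.07, the ubiquitin editor Tnfaip3 by -0.19 ± 0.09, Mcl1 by -0.26 ± 0.08, Casp12 by -0.42 ± 0.13, Chmp6 by -0.32 ± 0.08, Chmp1b by 0.15 ± 0.06, Gsdma3 by 0.24 ± 0.07 and Gsdmc by -0.33 ± 0.10. Gsdma3 and Gsdmc were dim, with means over the arrays of 2.89 and 2.65. The members were chosen with their differences from Control known, so no ranking of them against these genes is made here.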

How the data were processed

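Total RNA of GL261 tumours was measured on 12 Affymetrix arrays. The authors deposited log2 RMA signals for 41345 probe sets, made with RMA in the Affymetrix Expression Console per the submitters' processing notes, with no version given. RMA removes background, brings all arrays to one distribution and combines the probes of a set, so it compresses differences between dim probe sets and has no zero. The files hold no depth, and the number of arrays, 3 per group, limits the precision.

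Of the probe sets, 23521 carried 1 symbol, 1814 several and 16010 none or no listing in the array annotation. Symbols were matched to RefSeq by gene number (23328 matched, 0 changed). The brightest probe set stood for a gene (22180 genes, 1082 with several), with no filter on brightness. All 12 arrays were fitted with limma 3.58.1 in R 4.3.3 (a mean per group, eBayes, 8 residual degrees of freedom), with 7 contrasts, two-sided p-values and Benjamini-Hochberg adjustment over all genes. The fit was tested on simulated data. Correlations used numpy 2.4.6 in Python 3.11.15. Promoter sequences were those of RefSeq.

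The members and the 19 lists (259 entries, 239 measured) were chosen with earlier results of these data known. Named were all members, of each pathway list those past the threshold and otherwise the 2 with the smallest p in the contrast described, the 5 genes most correlated with Zbp1 and the 3 most correlated with each other member, leaving out predicted genes, receptor segments and microRNAs, and Ifit1 and Irf7. Cflar and Casp12 were also named as neighbours, and Aim2 and Gsdmc2 in the comparison with TMZ. The correlation test was planned for 28 pairs of 8 genes and covers 21 pairs of 7. Same-numbered arrays of different groups did not deviate together (correlations of deviations from -0.16 to 0.16), so no pairing was used. The 22 alternative settings are described in the closing section.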

Additional observations from a re-analysis of the deposited data

How the results depend on the processing

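Among the treated groups 0 of 7 genes and 0 of all genes passed the threshold under every setting tried. Zbp1 stayed above Anti-PD-1 in the Combination group in all 22 (0.74 to 1.05 when 1 array was left out, 0.40 to 0.89 otherwise), as did Casp8 (0.30 to 0.44 and 0.15 to 0.38). The replicate block changed no call of a member, and the median Combination minus Anti-PD-1 difference with it was 0.36. With the microglia level as a covariate that median was 0.08. The brightness filter kept Zbp1 and Casp8 alone, so no median over the members is given there. Both were called for Anti-PD-1 against Control under it, with 205 of 11090 genes, and neither in another comparison.

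Against Control, members past the threshold numbered 0 to 3 (TMZ), 0 to 4 (Anti-PD-1) and 0 to 3 (Combination) when 1 array was left out. The highest counts were those without Control replicate 3. Without TMZ replicate 1, Zbp1 passed for Anti-PD-1, with 0.225% of all genes. In the interaction, Zbp1 and Mlkl passed without Control replicate 3, with 198 of all genes. A variance trend gave 1 (TMZ) and 3 (Anti-PD-1), with 0.509% and 1.72% of all genes. Array weights gave 3 (Anti-PD-1), with 1.17% of all genes. Median differences for Anti-PD-1 were -0.14 with the neuron level and -0.18 with the microglia level as a covariate, and those of the interaction 0.15 and 0.09. Signs against Control turned with the neuron and microglia levels for Casp1 after TMZ (0.05, 0.18) and in the Combination (0.11, 0.08), for Gsdmd after TMZ (0.02, 0.25), Anti-PD-1 (0.06, 0.18) and in the Combination (0.02, 0.06), and for the interaction of Casp4 (-0.12, -0.14) and Gsdmd (-0.05, -0.36). With the mean of probe sets Gsdmd was 0.02 after TMZ and -0.09 in the interaction, and without 1 array the interaction of Ripk3 ranged from -0.07 to 0.13. Counts of all genes were 22 (0 to 363 when 1 array was left out, 0 to 113 otherwise) for TMZ, 65 (1 to 686 and 0 to 381) for Anti-PD-1 and 0 (0 to 282 and 0 to 42) for the Combination.

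Between the treated groups, differences that changed sign were small and uncalled. For Combination minus TMZ with the microglia level they were Zbp1 -0.22, Mlkl -0.21, Casp8 -0.11, Casp1 -0.10, Casp4 -0.32 and Gsdmd -0.18, with the neuron level Casp8 -0.03 and Casp4 -0.08, and with the mean of probe sets Gsdmd -0.18. For Combination minus Anti-PD-1 they were Casp4 -0.32 (neuron) and -0.26 (microglia), Gsdmd -0.07 (mean of probe sets), -0.04 (neuron) and -0.12 (microglia), and Ripk3 0.00 with array medians subtracted. For TMZ minus Anti-PD-1 with the neuron level they were Mlkl -0.00, Casp4 -0.24 and Gsdmd -0.04. Leaving out 1 array gave Combination minus TMZ ranges of -0.16 to 0.01 (Ripk3), -0.01 to 0.40 (Mlkl), -0.09 to 0.11 (Casp8), -0.13 to 0.20 (Casp4) and -0.07 to 0.08 (Gsdmd). For Combination minus Anti-PD-1 they were -0.14 to 0.05 (Ripk3), -0.06 to 0.11 (Casp4) and -0.03 to 0.26 (Gsdmd), and for TMZ minus Anti-PD-1 -0.07 to 0.11 (Ripk3), -0.00 to 0.45 (Mlkl), -0.17 to 0.16 (Casp4) and -0.06 to 0.22 (Gsdmd). Correlations with Ripk3 also turned: with Zbp1 -0.13 within groups and -0.26 without 2 arrays, with Casp8 -0.27 and -0.17, with Casp4 -0.16 within groups, and with Gsdmd 0.27 without 2 arrays. The cause was not tested.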
